A study of Homo sapiens with 3 samples.

Results

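The replication-dependent histone genes on the array were followed across 3 one-colour arrays of HSC-3, an established human tongue squamous carcinoma cell line. Members were all gene probes whose symbol in the platform annotation starts with HIST1H, HIST2H, HIST3H or HIST4H, the older names of the H1, H2AC, H2BC, H3C and H4C genes and of H3-4. The rule found 49 probes for 47 genes, among 24454 gene probes kept and 17556 named genes. By histone type these were 6 probes for H1, 14 for H2A, 14 for H2B, 9 for H3 and 6 for H4. H2AC11 and H2BC5 had more than 1 probe. The HIST1 cluster on chromosome 6 gave 41 probes, the HIST2 cluster on chromosome 1 gave 5 and the HIST3 genes on chromosome 1 gave 3.

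The DKK3 array was of cells given a plasmid for full-length DKK3, a Dickkopf-family glycoprotein that cells secrete, with an HA tag. The GFP array was of cells given a plasmid for green fluorescent protein, and the untransfected array was of cells given no plasmid. Per the labels, cells were grown in medium with 10% serum and RNA was taken 24 hours after transfection, as bulk RNA. Each group is 1 array, so no replicates exist, nothing was tested across samples, no p-value is given, and having only 3 arrays limits how precise any value can be. The sources used here do not give the share of cells that took up a plasmid, and a treatment label also names C2C12, a mouse muscle line.

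Histones package DNA: H2A, H2B, H3 and H4 form the nucleosome core and H1 binds the linker between nucleosomes. The replication-dependent genes are clustered, carry no introns in most cases and are expressed mainly in S phase, and their mRNAs end in a stem-loop in place of a poly(A) tail. SLBP binds that stem-loop, the U7 particle with LSM10 and LSM11 directs the cut at the 3′ end, and NPAT activates transcription of the clusters. Some members also give polyadenylated transcripts. The label protocol names an amplification kit of the kind that primes on poly(A) tails. How much of each histone signal came from tailed transcripts was not tested.

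Histone promoters of each type have sequence elements of their own, and the 200 bases before the start site are shown for 1 gene of each type, the one with the largest DKK3 minus GFP difference in size among the genes with a promoter entry. H3C12, with a slightly larger difference than H3C8, had none. The sequences are from RefSeq on GRCh38.p14, written 5′ to 3′ on the gene's own strand, and capitals mark the TATAAA motif of core promoters, the CCAAT box, the octamer of H2A and H2B promoters (ATTTGCAT) or the H1 box (AAACACA), on either strand. The windows lie on the minus strand at chr6:26234988-26235187 for H1-3, chr1:228457874-228458073 for H2AC25, chr6:27146859-27147058 for H2BC12, chr6:26271414-26271613 for H3C8 and chr6:26246997-26247196 for H4C7.
H1-3: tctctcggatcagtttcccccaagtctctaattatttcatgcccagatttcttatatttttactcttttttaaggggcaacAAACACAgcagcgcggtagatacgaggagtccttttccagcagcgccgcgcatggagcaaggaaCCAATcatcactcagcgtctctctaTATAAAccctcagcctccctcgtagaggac
H2AC25: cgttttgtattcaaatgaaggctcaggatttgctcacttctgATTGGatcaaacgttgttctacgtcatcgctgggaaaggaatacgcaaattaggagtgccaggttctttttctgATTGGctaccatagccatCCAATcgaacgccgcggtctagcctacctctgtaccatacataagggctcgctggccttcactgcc
H2BC12: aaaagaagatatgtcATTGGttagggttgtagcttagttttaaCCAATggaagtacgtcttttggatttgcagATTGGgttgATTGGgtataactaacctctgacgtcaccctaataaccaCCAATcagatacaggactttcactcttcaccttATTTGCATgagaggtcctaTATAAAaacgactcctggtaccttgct
H3C8: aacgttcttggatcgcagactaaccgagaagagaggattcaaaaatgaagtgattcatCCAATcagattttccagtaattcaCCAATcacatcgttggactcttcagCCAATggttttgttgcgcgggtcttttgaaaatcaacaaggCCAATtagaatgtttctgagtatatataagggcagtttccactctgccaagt
H4C7: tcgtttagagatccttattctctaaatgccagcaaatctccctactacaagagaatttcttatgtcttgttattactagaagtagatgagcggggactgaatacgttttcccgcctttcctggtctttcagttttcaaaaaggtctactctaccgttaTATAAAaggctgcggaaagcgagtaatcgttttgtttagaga
The first base of each match is counted back from the start. In H2BC12 the octamer began 46 bases before the start and the TATAAA motif 27 bases before it, with 5 CCAAT boxes further upstream. H3C8 had 4 CCAAT boxes in this window and H2AC25 had 3. H1-3 had the H1 box 119 bases before the start, and the H4C7 window held TATAAA and none of the other letters.

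Of the 47 genes, 44 had a promoter entry. The octamer was found in 14 of 44 members (31.8%), against 1.31% of 35116 promoters of the same length in the table. It was in 9 of 13 H2B promoters and 5 of 12 H2A promoters, and in 0 of the 6 H1, 7 H3 and 6 H4 promoters. The H1 box was in 6 of 6 H1 promoters and in 0 of the promoters of other types, against 3.76% of the table. CCAAT was in 40 of 44 members (90.9%) against 28.0% of the table, with H4 at 2 of 6. TATAAA was in 29 of 44 (65.9%) against 8.59%. The H4 subtype-specific element, a longer consensus, was in 0 of 44 and in 3 of the 35116. No motif contains another, though their ends may overlap, and a match is a description of the sequence. Windows of H2A and H2B genes that lie head to head overlap, so the same site may count for both genes.

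The arrays were checked before the histones were read. The DKK3 probe had an intensity of 64328 in DKK3 cells, 749 in GFP cells and 539 in untransfected cells, which is a DKK3 minus GFP difference of 6.01 on the log2 scale. All 10 of 10 squamous epithelial markers were detected on every array, with summed intensities of 46747, 57038 and 53644 in DKK3, GFP and untransfected cells. Of the other marker lists, 4 of 5 leukocyte, 2 of 5 fibroblast and 2 of 3 endothelial markers on the array were detected, and PTPRC, COL1A1, COL3A1, LUM and CDH5 were not. Of 5 skeletal muscle markers 4, 4 and 5 were detected in DKK3, GFP and untransfected cells. The summed intensities of the leukocyte list were 480.2, 523 and 525, those of the fibroblast list 314, 324 and 356, those of the endothelial list 138, 133 and 159 and those of the muscle list 251, 254 and 285, in the same order of arrays, and their part in the histone values was not tested. Of the positive controls, the first varied within an array by 5.88% to 6.11% and the second by 8.82% to 11.9% (coefficient of variation over spots).

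Detection meant a spot brighter than the mean of the blank spots by more than 2 SD, a limit of 36.6 intensity units in DKK3 cells, 33.8 in GFP cells and 40.8 in untransfected cells. Of the 49 histone probes, 45 were detected on at least 1 array and 42 on all 3. The 4 not detected on any array were those of H1-4, H1-6 and H4C13 and 1 of the H2BC5 probes. The probe of H2AC11 in block 24 and that of H3C1 were not above the limit on the DKK3 array, and that of H4C5 was not above it on the GFP array, so the differences given for these probes rest on a level below the limit. The 24 probes with a mean intensity of at least 100 are called the brighter probes. Members of a type have nearly the same coding sequence and probe sequences were not used here, so a probe may read more than its named gene. Counts of probes within a type may therefore not be counts of separate signals.

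Differences are given as log2 of quantile-normalized levels, DKK3 minus GFP first. The robust SD of this difference over all detected probes was 0.084, and serves as a scale since there are no replicates. Quartiles of the difference were -0.056 and 0.058 over all detected probes. They were -0.097 and 0.098 over those with a mean intensity of at least 100, so probes of that brightness spread more widely. No histone probe differed by 2-fold or more between the DKK3 and GFP arrays, 0 of 45, where 0.256% of all detected probes did. Most histone probes were slightly lower on the DKK3 array: 14 of 45 lay above 0 and 30 below, against 49.1% of all detected probes above 0, with a median of -0.038 against -0.001. Their differences ran from -0.44 to 0.19. Among the brighter probes, 5 of 24 lay above 0 and 18 below with a median of -0.064, against 50.2% of all probes of that brightness above 0 with a median of 0.001. In bulk RNA, fewer cells in S phase and less histone RNA per cell cannot be told apart. With 1 array per group, neither can be told apart from a difference between the arrays themselves.

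H2B had the largest difference of any member. H2BC12, which encodes a core H2B and is among the genes with known polyadenylated transcripts, had a log2 level of 10.32 in DKK3 cells, 10.76 in GFP cells and 10.51 in untransfected cells. Its DKK3 minus GFP difference was -0.44, a ratio of 0.736, and 0.803% of all detected probes lay as low or lower. That share is over probes of any brightness, which spread less than probes with a mean intensity of at least 100. The GFP array was the highest for this probe, and the untransfected array lay between the others. H2BC8 had 9.21 in DKK3 cells, 9.44 in GFP cells and 9.26 in untransfected cells, a DKK3 minus GFP difference of -0.23. H2BC9 had 9.51, 9.72 and 9.51 on the same arrays, a difference of -0.22. For these 2 genes the GFP array stood highest, and the DKK3 minus untransfected differences were -0.05 and -0.00.

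The other H2B probes followed with smaller values. H2BC13 had 10.22, 10.37 and 10.29 in DKK3, GFP and untransfected cells, a DKK3 minus GFP difference of -0.14. H2BC14, in block 23 of the array, had 9.21, 9.32 and 9.37, a difference of -0.11. The brighter probes of H2BC15, H2BC18, H2BC11 and H2BC6 gave -0.04, -0.04, -0.04 and -0.00, and the dimmer probes of H2BC5, H2BC21, H2BC26 and the testis-type H2BC1 gave -0.13, -0.05, -0.05 and 0.03. In all, 12 of 13 detected H2B probes and 9 of 9 brighter ones lay below 0, with medians of -0.046 and -0.11. Of the 13 detected H2B probes, 0 were highest on the DKK3 array and 10 were highest on that of GFP. Over all probes detected on all 3 arrays, 30.6% and 33.4% were.

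**Figure D1:**
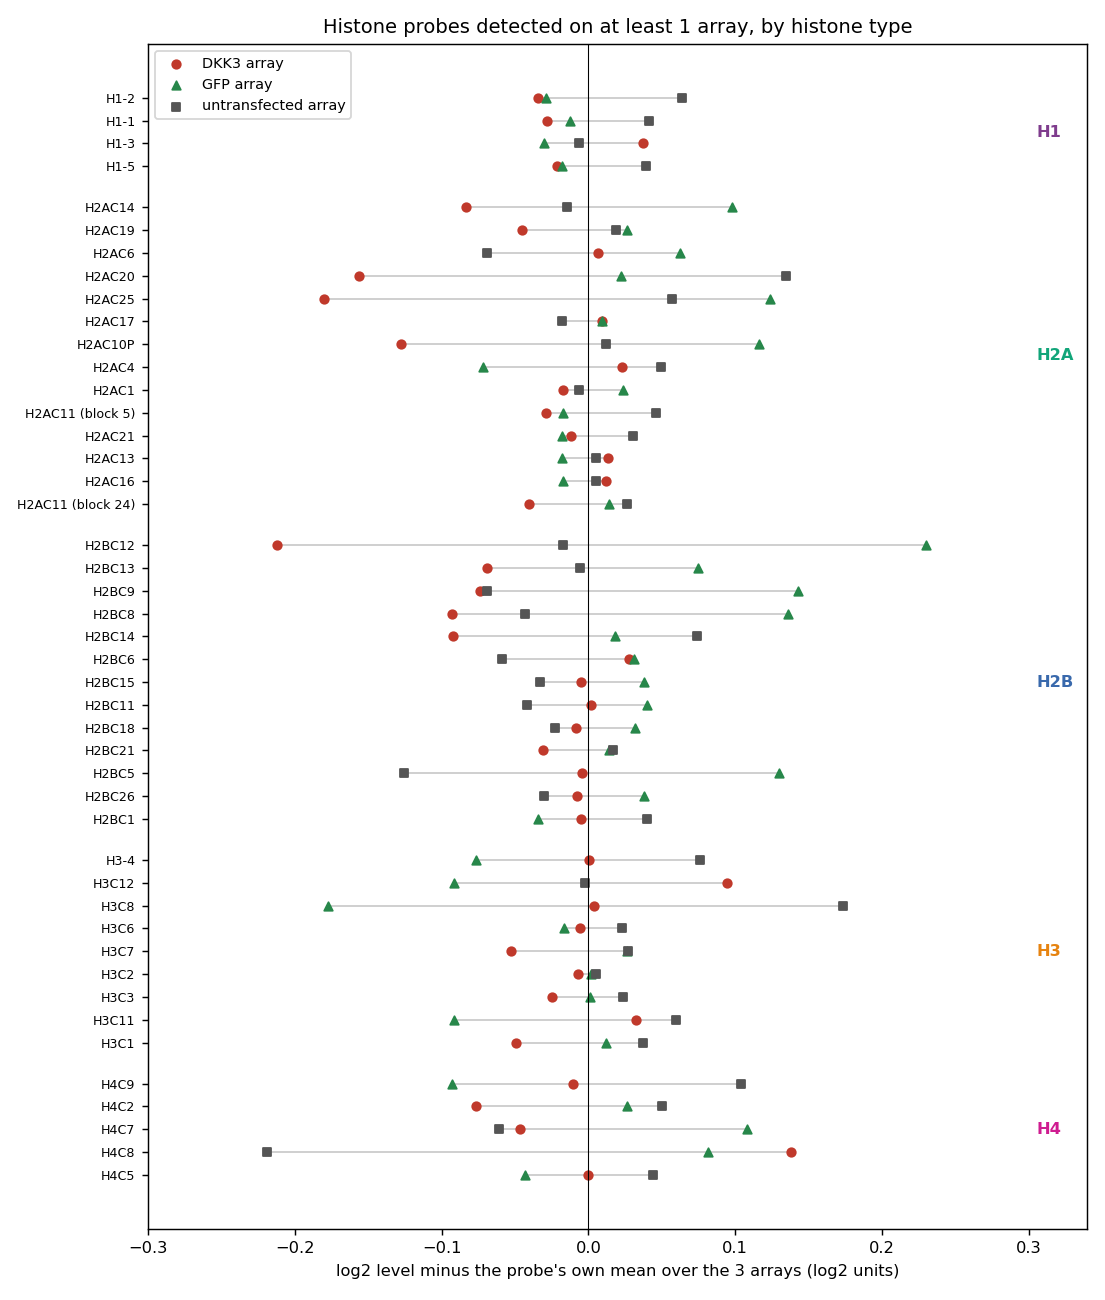
Log2 level of each histone probe detected on at least 1 array, minus its own mean over the 3 arrays, for the DKK3 array (circles), the GFP array (triangles) and the untransfected array (squares), grouped by histone type and ordered by mean level. The GFP triangle is furthest right for 10 of 13 H2B probes, and for H2BC12 the DKK3 circle lies furthest left and the GFP triangle furthest right, a difference of -0.44.

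H2A held the next largest values. H2AC25, an H2A gene of the HIST3 group, had 7.75 in DKK3 cells, 8.05 in GFP cells and 7.99 in untransfected cells, a DKK3 minus GFP difference of -0.30. H2AC10P, annotated as a pseudogene, had 7.50, 7.75 and 7.64, a difference of -0.24. H2AC14 had 9.71, 9.89 and 9.78, a difference of -0.18. On all 3 of these probes the DKK3 array was the lowest and the GFP array the highest. H2AC20 had 8.05, 8.23 and 8.34, a DKK3 minus GFP difference of -0.18 with the untransfected array the highest.

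The remaining brighter H2A probes, H2AC19, H2AC6 and H2AC17, gave -0.07, -0.06 and 0.00, and H2AC17 had 7.75 in DKK3 and GFP cells alike. The dimmer H2A probes ran from -0.05 for the block 24 probe of H2AC11 to 0.09 for H2AC4, with the testis-type H2AC1 at -0.04, the block 5 probe of H2AC11 at -0.01, H2AC21 at 0.01 and H2AC13 and H2AC16 at 0.03 each. Of 14 detected H2A probes 9 lay below 0, and of 7 brighter ones 6 lay below 0 and 0 above, with medians of -0.048 and -0.18.

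H3 probes did not share that direction. H3C12 had 11.48 in DKK3 cells, 11.30 in GFP cells and 11.39 in untransfected cells, a DKK3 minus GFP difference of 0.19. H3C8 had 10.31, 10.13 and 10.48, a difference of 0.18. H3-4, which encodes a testis-type H3 and was detected on all 3 arrays, had 12.24, 12.17 and 12.32, a difference of 0.08. On these 3 brighter probes the GFP array was the lowest. With median scaling in place of quantile normalization the H3C12 difference was 0.01 and that of H3-4 was -0.09, while H3C8 stayed above 0 at 0.05. The 6 dimmer H3 probes ran from -0.08 for H3C7 to 0.12 for H3C11, with H3C1 at -0.06, H3C3 at -0.03, H3C2 at -0.01 and H3C6 at 0.01.

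H4 and H1 were mixed or near 0. H4C7 had 6.99 in DKK3 cells, 7.14 in GFP cells and 6.97 in untransfected cells, a DKK3 minus GFP difference of -0.15. H4C2 had 8.68, 8.78 and 8.81, a difference of -0.10. H4C9, in block 24, had 8.87, 8.79 and 8.98, a difference of 0.08 that was -0.04 with median scaling. H4C8 gave 0.06 and H4C5 0.04, so 3 of 5 H4 probes lay above 0. Of the linker histones, H1-2 had 8.01, 8.01 and 8.11, a DKK3 minus GFP difference of -0.01, and H1-1, H1-5 and H1-3 gave -0.02, -0.00 and 0.07.

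**Figure D2:**
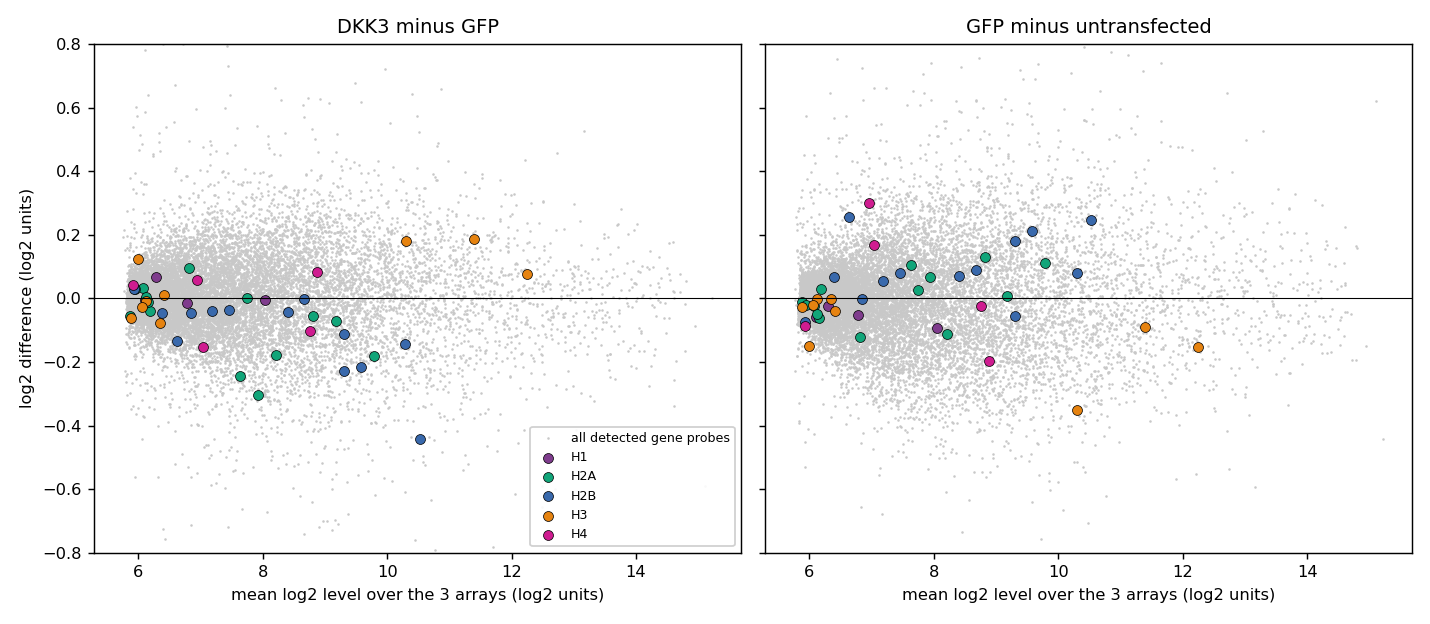
Log2 difference (vertical axis, log2 units) against mean log2 level over the 3 arrays (horizontal axis) for DKK3 minus GFP (left) and GFP minus untransfected (right), with all 18151 detected gene probes in grey and histone probes coloured by type. The vertical axis ends at 0.8, and 62 probes on the left and 67 on the right lie outside it, none of them a histone probe.

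The GFP array was set against the untransfected array for the transfection of a plasmid itself. Since the GFP array enters this comparison and the one above, the values of a member in the 2 comparisons are not independent. No histone probe differed by 2-fold between the GFP and untransfected arrays, 0 of 45, where 0.255% of all detected probes did. The median over members was -0.012, with 19 of 45 above 0, against 48.3% of all detected probes. Among the brighter probes the direction turned: 16 of 24 (66.7%) lay above 0 with a median of 0.069, against 48.7% of all probes of that brightness with a median of -0.005. By type, 10 of 13 H2B probes lay above 0 with a median of 0.080, 0 of 9 H3 probes did with a median of -0.039, and 0 of 4 H1 probes did with a median of -0.056. H2A lay at 7 of 14 above 0 and H4 at 2 of 5.

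H3C8 had the lowest value, with a GFP minus untransfected difference of -0.35, and 1.22% of all detected probes lay as low or lower. This share, like that for H4C8 below, is over probes of any brightness. The H3C8 level was 10.13 on the GFP array, against 10.48 on the untransfected array. H3-4 and H3C11 followed at -0.15 each and H3C12 at -0.09, and the other H3 probes lay between -0.04 and -0.00. With other processing of the scanner values H3C7 took the other sign in 3 of 5 alternatives. H3C2 did so in 2 of 6 and H3C3 in 1 of 6. At the other end H4C8 had 7.03 on the GFP array, against 6.73 on the untransfected array, a difference of 0.30, and 2.64% of all detected probes lay as high or higher. H4C8 stood at 7.09 on the DKK3 array, so the untransfected array was the low one for this gene.

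The detected H2BC5 probe had 6.76 in GFP cells and 6.50 in untransfected cells, a GFP minus untransfected difference of 0.26. H2BC12 gave 0.25, H2BC9 0.21 and H2BC8 0.18, and H2BC6, H2BC11, H2BC13 and H2BC15 gave 0.09, 0.08, 0.08 and 0.07. H2BC26 and H2BC18 gave 0.07 and 0.05, while H2BC21, H2BC14 and H2BC1 gave -0.00, -0.06 and -0.07. Among H2A probes H2AC6 was the highest at 0.13, followed by H2AC14 at 0.11 and H2AC10P at 0.10, and H2AC4 and H2AC20 were the lowest at -0.12 and -0.11. H4C7 gave 0.17, H4C2 -0.02, H4C5 -0.09 and H4C9 -0.20. The 4 H1 probes lay between -0.09 for H1-2 and -0.02 for H1-3.

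The DKK3 array was also set against the untransfected array. No histone probe differed by 2-fold, 0 of 45, where 0.293% of all detected probes did. Of the 45, 14 lay above 0 and 31 below with a median of -0.045, against 46.9% of all detected probes above 0 with a median of -0.005. The lowest were H2AC20 at -0.29, H2AC25 at -0.24 and H2BC12 at -0.19, and the highest were H4C8 at 0.36, H2BC5 at 0.12 and H3C12 at 0.10. The value of H3C12 was -0.00 with median scaling. H2B lay at 6 of 13 above 0 with a median of -0.005, and H3 at 1 of 9 with a median of -0.048. H3C8 was at -0.17, H2BC14 at -0.17, H2AC10P at -0.14 and H4C2 at -0.13.

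**Figure D3:**
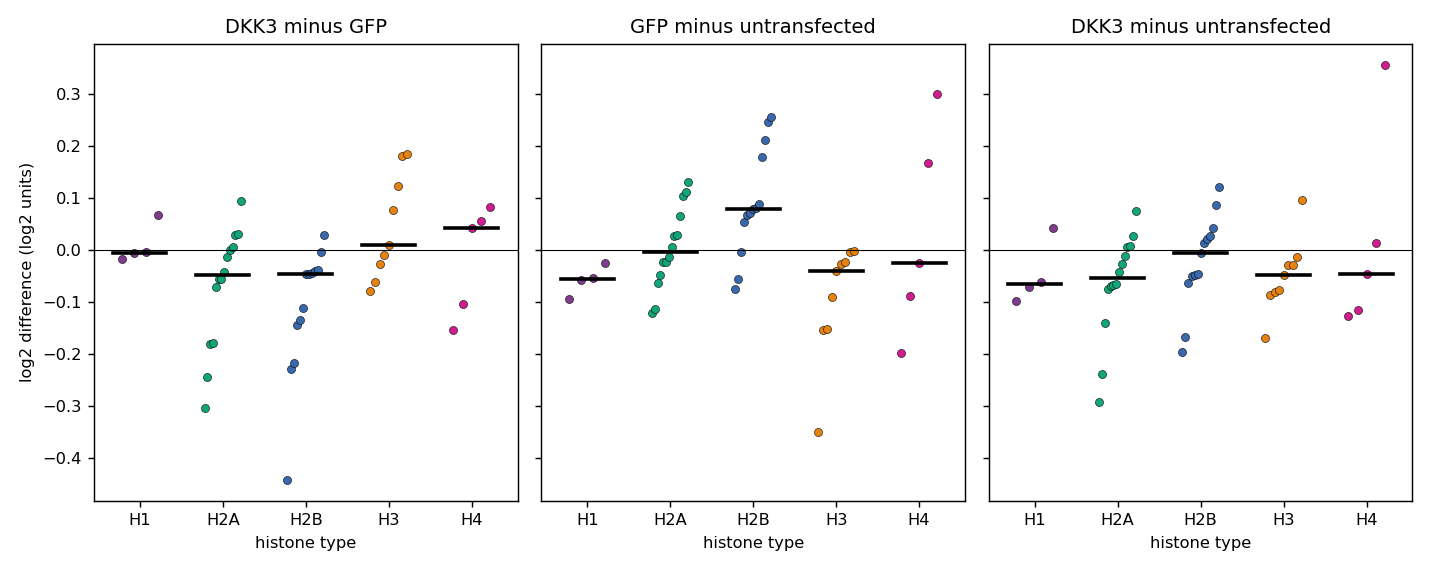
Log2 difference of each detected histone probe (points, in log2 units on the vertical axis) by histone type (horizontal axis) for DKK3 minus GFP, GFP minus untransfected and DKK3 minus untransfected, with a bar at the median of the type. H2B points lie mostly below 0 on the left, with a median of -0.046, and mostly above 0 in the middle, with a median of 0.080, while every H3 point lies below 0 in the middle.

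Read by array, the 42 probes detected on all 3 arrays were lowest on the DKK3 array in 20 cases (47.6%), on the GFP array in 12 and on the untransfected array in 10. Over all 16963 probes detected on all 3 arrays the DKK3 array was the lowest for 34.0%, the GFP array for 32.9% and the untransfected array for 33.1%. The histone probes were highest on the DKK3 array in 6 cases (14.3%), on the GFP array in 17 (40.5%) and on the untransfected array in 19 (45.2%). Over all 16963 probes these shares were 30.6%, 33.4% and 36.0%. Of the 8 H3 probes in this set, 7 were highest on the untransfected array and 0 in GFP cells.

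Position on the array moved with part of these values. Over all detected probes in blocks 22 to 24 of the 24 printed blocks, the median difference was -0.046 for DKK3 minus GFP, with 31.2% above 0, -0.026 for GFP minus untransfected and -0.062 for DKK3 minus untransfected. Of the histone probes 6 of the detected lay in those blocks, those of H2BC14, H4C9, H3C11, H3C7 and H3C1 and 1 of the H2AC11 probes. All 6 lay below 0 for GFP minus untransfected, as did 64.6% of all detected probes in these blocks. The 39 detected members outside these blocks had a median of -0.026, with 12 above 0, for DKK3 minus GFP. H2BC12, H2AC25, H2AC10P, H2BC8, H2BC9, H2AC14 and H2AC20 all lay outside them. How far position accounts for the values inside them was not tested. Medians of the other blocks are not given here, among them block 1 with the probe of H2BC1. The part of position in the values outside blocks 22 to 24 was not tested either.

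Many H2A and H2B genes are arranged head to head and share a promoter region, and 6 such pairs were on the array, with 215 to 248 bases between start sites. H2AC14 and H2BC14 gave DKK3 minus GFP differences of -0.18 and -0.11, and H2AC25 and H2BC26 gave -0.30 and -0.05. H2AC20 and H2BC21 gave -0.18 and -0.05, and H2AC11, averaged over its probes, and H2BC11 gave -0.03 and -0.04. The members of these 4 pairs lay on the same side of 0, where 9 of 14 detected H2A probes and 12 of 13 detected H2B probes lay below it. H2AC13 and H2BC13 gave 0.03 and -0.14, and the testis-type H2AC1 and H2BC1 gave -0.04 and 0.03. For GFP minus untransfected H2AC14 and H2BC14 gave 0.11 and -0.06, and H2AC11 and H2BC11 gave -0.04 and 0.08. H2AC13 and H2BC13 gave -0.02 and 0.08, and H2AC1 and H2BC1 gave 0.03 and -0.07. H2AC25 and H2BC26 gave 0.07 each, and H2AC20 and H2BC21 gave -0.11 and -0.00. Sharing of a sign within pairs differed between these comparisons and was not tested.

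The members were also read by promoter letters. The 9 detected H2B genes with the octamer had a median DKK3 minus GFP difference of -0.046, with 8 below 0, and the 4 without it had -0.090, with 4 below 0. Within H2A, the 5 genes with the octamer had a median of -0.041 and the 7 without it -0.033. The medians rest on few genes and were not tested.

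**Figure D4:**
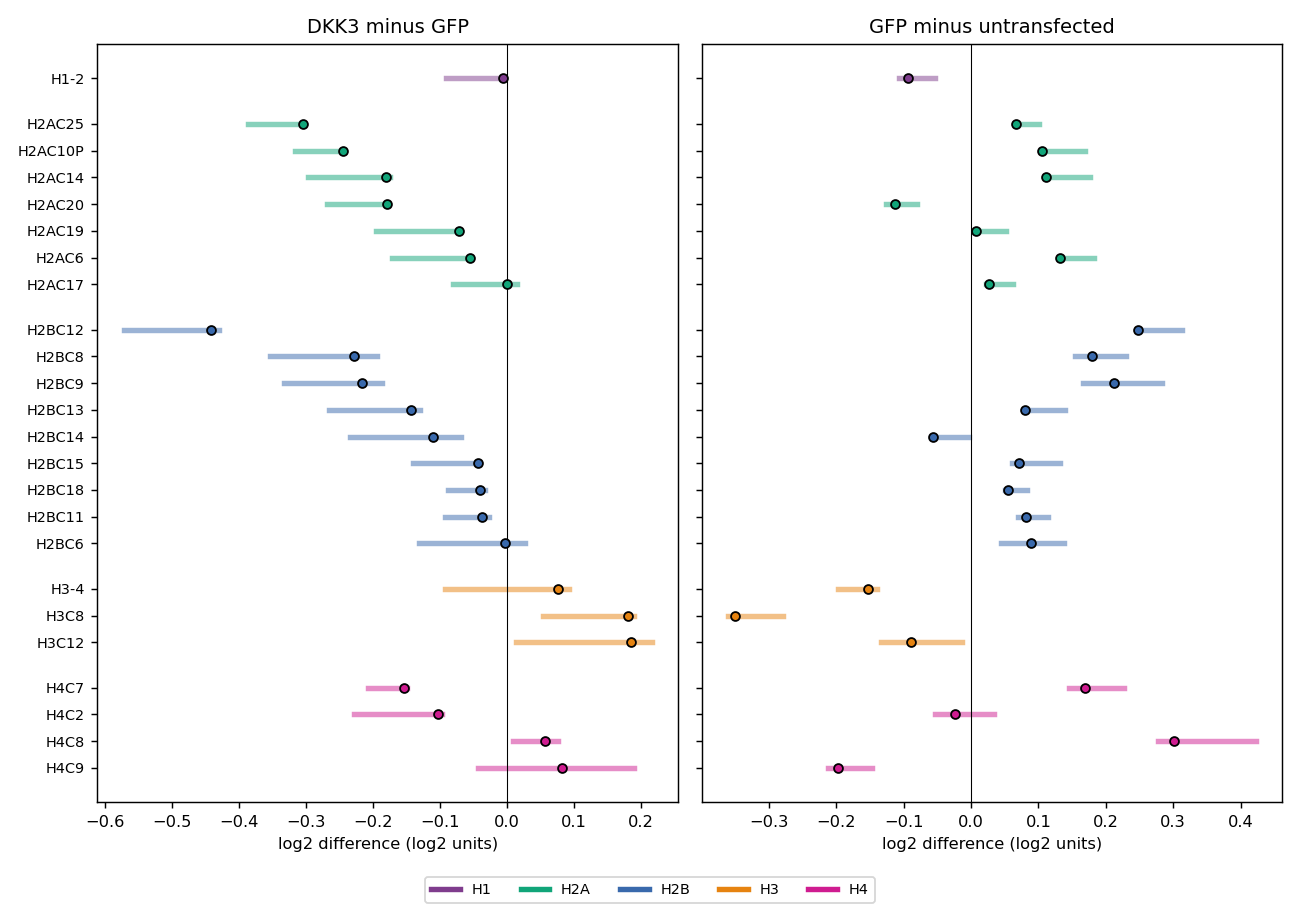
Log2 difference (points, log2 units) of each of the 24 brighter histone probes for DKK3 minus GFP (left) and GFP minus untransfected (right), with bars for the range over other background corrections, normalizations and position corrections of the scanner values, coloured by histone type. The H2BC12 bar runs from -0.57 to -0.43 on the left, and the H3-4 bar crosses 0 there, from -0.09 to 0.09.

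Genes that process or transcribe histone mRNA were read as a list of 38, of which 37 were detected. None of them differed by 2-fold in any of the 3 comparisons, where 0.255% to 0.293% of all detected probes did. For DKK3 minus GFP 21 of 37 lay above 0 with a median of 0.041, against 50.2% of all detected genes, and for GFP minus untransfected 10 of 37 did with a median of -0.081, against 47.3%. SLBP, the stem-loop binding protein, had 9.84 in DKK3 cells, 9.58 in GFP cells and 9.81 in untransfected cells, a DKK3 minus GFP difference of 0.26, and NPAT gave 0.11. LSM10, the U7 particle subunit, had 8.19, 8.81 and 8.78, a difference of -0.62, and its probe lies in block 24. NCBP2, of the nuclear cap-binding complex, had 9.84, 10.45 and 10.59, a difference of -0.61 with its probe in block 1. YY1, a transcription factor, gave -0.32, also with its probe in block 1. For GFP minus untransfected, CASP8AP2, a protein of histone locus bodies also called FLASH, gave -0.45 with its probe in block 22, CDK9, the elongation kinase, gave 0.30, and SNRPD3, a shared Sm protein, gave -0.26.

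Histone chaperones and assembly factors gave 17 of 32 above 0 for DKK3 minus GFP with a median of 0.015, against 50.2% of all detected genes. For GFP minus untransfected 9 of 32 lay above 0 with a median of -0.081, against 47.3%. Of these genes 0 differed by 2-fold in the 3 comparisons, where 0.255% to 0.293% of all detected probes did. CHAF1A, the large subunit of chromatin assembly factor 1, had 7.92, 8.30 and 8.51 in DKK3, GFP and untransfected cells, a DKK3 minus GFP difference of -0.38 with its probe in block 24. RBBP7, a histone-binding protein, gave 0.35 as the mean of its probes and HAT1, which acetylates new H4, gave 0.29. For GFP minus untransfected SUPT16H and SSRP1, the subunits of the chaperone FACT, gave -0.46 and -0.27, and HAT1 gave -0.41.

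Of 43 detected genes of S phase and DNA replication, 19 lay above 0 for DKK3 minus GFP with a median of -0.008, against 50.2% of all detected genes. For GFP minus untransfected 14 did with a median of -0.052, against 47.3%. CCNA2, which encodes cyclin A2 of S and G2 phase, had 9.14 in DKK3 cells, 10.03 in GFP cells and 10.46 in untransfected cells. Its differences were -0.89 for DKK3 minus GFP, -0.44 for GFP minus untransfected and -1.32 for DKK3 minus untransfected, the last past 2-fold, and its probe lies in block 22, where all detected probes had a DKK3 minus untransfected median of -0.068. No other gene of this list passed 2-fold in the 3 comparisons, where 0.255% to 0.293% of all detected probes did. RFC2 and RPA3, of the clamp loader and the single-strand binding complex, gave -0.39 and -0.31 for DKK3 minus GFP, and their probes lie in block 24. For GFP minus untransfected GINS4, of the replicative helicase, gave 0.32 with its probe in block 1, and RFC3 gave -0.31.

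Histone variant genes outside the choice of members gave 6 of 13 above 0 for DKK3 minus GFP with a median of -0.018, against 50.2% of all detected genes. Of these variants 0 differed by 2-fold in the 3 comparisons, where 0.255% to 0.293% of all detected probes did. H2AX, the variant phosphorylated at DNA breaks, had 8.84, 9.06 and 8.89 in DKK3, GFP and untransfected cells, a DKK3 minus GFP difference of -0.22 with the GFP array the highest. The H2AX probe lies in block 1. H1-8, an oocyte linker histone, gave -0.22, H2BW2 gave -0.17 and the dim H2BW1, not detected on the DKK3 array, gave -0.06. H2AZ1, the variant at promoters, gave 0.13, CENPA, of centromeres, 0.12, and H3-3A, the replacement H3, 0.04. The probes of H2AZ2 gave 0.09 and -0.08 and those of H3-3B 0.07 and -0.00, so probes of a gene did not always share a sign. H1-10 gave -0.08, MACROH2A1 0.01, MACROH2A2 -0.03 and H2AJ -0.02. For GFP minus untransfected H1-10 gave -0.37, CENPA -0.34 and H2BW2 0.32.

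Of 6 histone genes listed for polyadenylated transcripts, 5 were on the array and detected: H1-2, H2AC6, H2BC5, H2BC12 and H2BC21. For DKK3 minus GFP 0 of 5 lay above 0, against 50.2% of all detected genes, 31.1% of detected histone probes and 1 of 13 H2B probes. Their median was -0.056, with values from -0.44 for H2BC12 to -0.01 for H1-2. For GFP minus untransfected 3 of 5 lay above 0, with H2BC5 at 0.26, H2BC12 at 0.25 and H2AC6 at 0.13. That compares with 47.3% of all detected genes, 42.2% of detected histone probes and 10 of 13 H2B probes. These genes are members too, so their values are the ones given above.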

How the data were processed

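RNA of 3 HSC-3 cultures (DKK3, GFP and untransfected, 1 array each) was amplified, labelled with Cy5 and hybridised, per the labels' protocols. The scanner files, deposited by the authors, hold a median intensity per spot, which combines several scanner gains per the file headers. The authors' value table also holds intensity, and follows the spot values along a straight line, with a median of 25 on each array.

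Gene probes marked faulty were left out, and the deposited intensity was background-corrected by normexp (limma 3.58.1 under R 4.3.3, offset 50). After control spots were dropped, quantile normalization and log2 followed. The offset shrinks log2 differences of dim probes most. Symbols were updated through RefSeq's gene table of GRCh38.p14, for all 49 histone probes. A probe was called at a log2 difference of at least 1 in size and detection on an array compared. Of the 17567, 18064 and 18110 probes so detected for DKK3 minus GFP, GFP minus untransfected and DKK3 minus untransfected, 45, 46 and 53 were called. Gene lists use the mean of a gene's detected probes. All detected histone probes, DKK3, all detected variants and, for each list, the 3 genes with the largest differences for DKK3 minus GFP and GFP minus untransfected are named, and SLBP and NPAT were added after their values were seen. Procedures were tested on simulated data with known changes of 2-fold or more. Smaller changes and effects of position were not simulated. The alternatives were other background corrections, normalizations, detection filters, position corrections, averaging and the deposited table. The members and lists were chosen with earlier results of these data known.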

Additional observations from a re-analysis of the deposited data

How the results depend on the processing

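The median over histone members stayed below 0 in all 14 alternatives for DKK3 minus GFP (-0.081 to -0.026) and for DKK3 minus untransfected (-0.33 to -0.015), and for GFP minus untransfected it lay above 0 in 2 of 14, at 0.069 with 16 of 24 members above 0 at a mean intensity of at least 100, and at 0.0014 with block and row medians subtracted, against -0.012 as reported. A median moved where it shifted by more than the robust SD over all probes. With median scaling the DKK3 minus GFP median was -0.14 for H2B and -0.043 for H4, and 9 members lay above 0 for DKK3 minus untransfected. With a normexp offset of 16, 91 probes were called for DKK3 minus untransfected. Among probes detected on all 3 arrays, and without blocks 22 to 24, the GFP minus untransfected median of H4 was 0.073. Alternatives chosen after seeing the data were the brightness limit, the centred deposited table and leaving out testis-type members and the pseudogene. With a mean intensity of at least 100, 5 of 24 members lay above 0 for DKK3 minus GFP, with H2A at -0.18 and H3 at 0.18, H3 and H4 lay at -0.15 and 0.073 for GFP minus untransfected, and 9 members lay above 0 for DKK3 minus untransfected. The authors' deposited table rounds to whole numbers, and its all-probe median was 0 for DKK3 minus GFP, -0.22 for GFP minus untransfected and -0.25 for DKK3 minus untransfected. In it 9 members lay above 0 for DKK3 minus GFP, 1 member and 218 probes were called and H2A lay at -0.13, and centring left these values as they were. For GFP minus untransfected its median was -0.24 with 6 members above 0, 2 members and 255 probes called, and H1, H2A, H2B, H3 and H4 at -0.31, -0.25, -0.092, -0.39 and -0.20. For DKK3 minus untransfected its median was -0.33 with 2 members above 0, 2 members and 492 probes called, and the types at -0.35, -0.34, -0.19, -0.36 and -0.34 in the same order. After centring, 2 members and 150 probes were called for GFP minus untransfected with H3 at -0.17, and 1 member and 212 probes for DKK3 minus untransfected. The members called in the authors' deposited table, H3C1, H3C11, H4C5 and H2AC11, had values of 1 to 7 there. Over alternatives of the scanner values, 33 of 45 members kept their sign for DKK3 minus GFP, 37 for GFP minus untransfected and 33 for DKK3 minus untransfected. The cause of these shifts was not tested. With 1 array per group, spread between cultures is unknown, and differences near the robust SD cannot be set apart from array noise. That SD is over all detected probes, and probes with a mean intensity of at least 100 spread more widely. Dim probes near the detection limit carry little information. No paired analysis was possible because each group is 1 array and the labels give no shared replicate numbers.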

Other observations

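H2BC12L, an H2B gene outside the clusters whose older symbol H2BFS is not covered by the choice of members, had a log2 level of 9.88 in DKK3 cells, 9.93 in GFP cells and 9.71 in untransfected cells. Its differences were -0.05 for DKK3 minus GFP, 0.22 for GFP minus untransfected and 0.17 for DKK3 minus untransfected, so the untransfected array was the lowest.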
